A study of Mus musculus with 2 samples.

Results

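Elastic fibre and microfibril genes were examined in whole lungs of mouse embryos at embryonic day 18, shortly before birth. The set lists 10 genes, and its members were the probe sets whose only gene symbol in the platform annotation is in that list. This gave 17 of the 45037 probe sets that are not controls, for 9 of the 10 genes; expression of Fbn1 is not analysed here. RNA was measured on 2 Affymetrix arrays. One array came from lungs homozygous for Nmyc9a, a hypomorphic (reduced-function) allele of Mycn, the gene of the N-Myc transcription factor, and the other from wildtype lungs. Each array holds RNA of pooled lungs; the sources used here do not state the number of lungs, the strain or the sex. The comparison asks how transcripts of these genes differ between Nmyc9a homozygous and wildtype lungs.

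Elastic fibres give the lung its recoil. Mesenchymal cells secrete tropoelastin, the product of Eln, onto a scaffold of fibrillin microfibrils; fibulins and latent TGF-beta binding proteins help to deposit it there, and lysyl oxidases join it into an insoluble polymer. In the mouse lung tropoelastin production climbs late in gestation and during the postnatal formation of alveolar septa, where myofibroblasts lay down elastin at the septal tips, and smooth muscle of airways and vessels, endothelium and mesothelium contribute elastic fibres as well.

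With 1 array per group, no replicate stands behind any difference below, and no p-value is given. Values are signal intensities in the deposited units, with the array labelled Nmyc9a multiplied by 0.977. A probe set counted as measured when the mean of both arrays reached a floor of 49.3, and a gene was represented by its brightest probe set. Log2 ratios are Nmyc9a over wildtype, with signals below the floor raised to it. The one error estimate these arrays allow is the disagreement between probe sets of a gene. Pooled over 5671 genes, its SD was 0.40 in log2 units, or 1.32-fold; it leaves out differences between animals, pools and arrays. Mycn, the altered gene, read 84.8 on the array labelled Nmyc9a and 66.3 on the wildtype array with its brightest probe set, and 85.4 on the array labelled Nmyc9a against 51.1 on the wildtype array with a further measured probe set. These signals are close to the floor and were not lower on the array labelled Nmyc9a. Since the position of these probes with respect to the Nmyc9a alteration is unknown here, the label could not be checked from them, and Nmyc9a below stands for the array so labelled.

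Of the 9 elastic fibre and microfibril genes, all measured, none was 1.5-fold higher and none was 1.5-fold lower on the array labelled Nmyc9a. Among all 12600 measured genes, 6.33% passed 1.5-fold upward and 9.7% downward. Bright probe sets spread less toward higher ratios: among the brightest 25% of measured genes (3150 genes with a mean signal from 380.0), which hold 8 of the 9 members, 1.94% were 1.5-fold higher and 11.5% were 1.5-fold lower. A count of 0 of 9 in each direction lies close to either background. The members ran from a log2 ratio of -0.57 for Lox to 0.30 for Ltbp4, with a median of -0.20. The median was -0.09 over all measured genes and -0.20 over the brightest 25%. Of the 9 genes, 6 stood below 0 and 3 above, or 5 and 4 under loess.

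**Figure D1:**
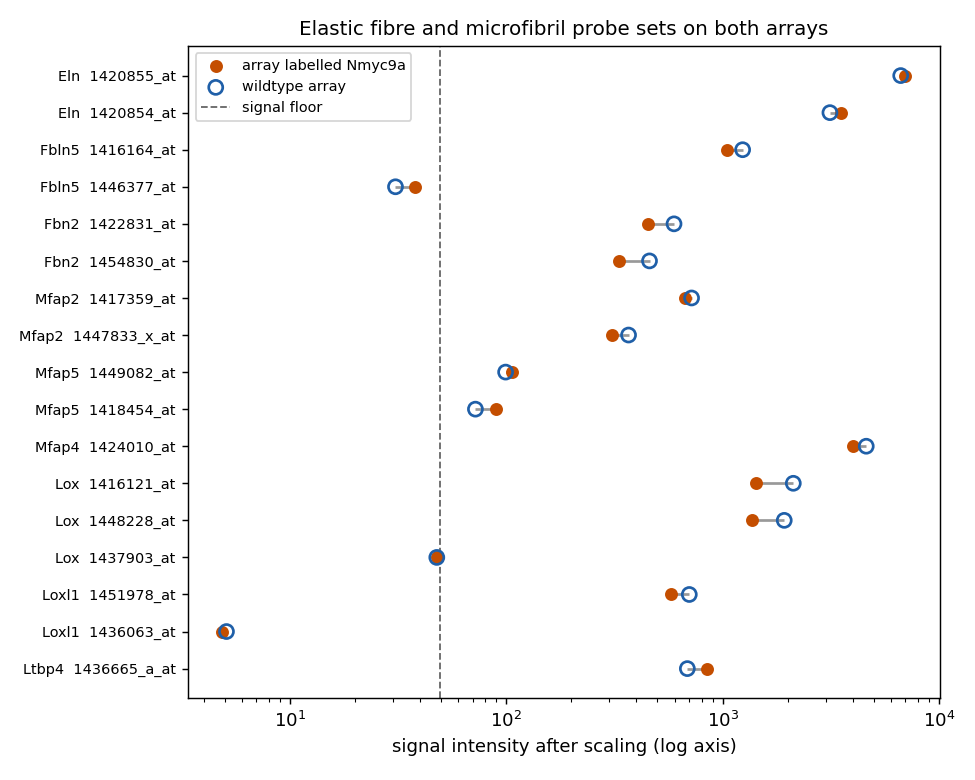
Signal intensity after scaling (log axis) of all 17 member probe sets, with filled points for the array labelled Nmyc9a and open circles for the wildtype array. Both Lox probe sets above the floor of 49.3 (dashed) lie lower on the array labelled Nmyc9a, the Eln points nearly coincide, and 3 probe sets lie below the floor on both arrays.

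Eln, the gene of tropoelastin, the elastic core of the fibre, had nearly equal and very bright signals on both arrays. Its brightest probe set read 6995 on the array labelled Nmyc9a and 6654 on the wildtype array (log2 ratio 0.07). The other Eln probe set read 3527 in Nmyc9a and 3133 in wildtype lungs (0.17). Both ratios were smaller than the SD between probe sets, and they differed from each other by 0.10. Saturation of such bright probe sets was not tested. Fbln5, the gene of fibulin-5, which binds tropoelastin and the cross-linking enzyme Loxl1 and is needed for fibre assembly in mice, read 1048 in Nmyc9a and 1238 in wildtype lungs (-0.24). The remaining Fbln5 probe set was below the floor on both arrays, at 37.9 in Nmyc9a and 30.8 in wildtype lungs.

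Fibrillin and microfibril-associated genes went slightly both ways. Fbn2, the gene of fibrillin-2, a scaffold protein made mainly before birth, read 454 in Nmyc9a and 596 in wildtype lungs with its brightest probe set (log2 ratio -0.39, 1.31-fold lower). With the other it read 333 in Nmyc9a and 459.5 in wildtype lungs (-0.46, 1.38-fold lower). The Fbn2 probe sets thus gave nearly the same difference, 0.07 apart, and the larger ratio was just beyond the SD of 0.40.

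Mfap2 and Mfap5 encode the small microfibril-associated glycoproteins MAGP-1 and MAGP-2, which attach to fibrillin. Mfap2 read 667 in Nmyc9a and 719 in wildtype lungs (log2 ratio -0.11), and 310 in Nmyc9a against 368 in wildtype lungs with its other probe set (-0.25). Mfap5 read 107 in Nmyc9a and 99.4 in wildtype lungs (0.11), and 89.7 in Nmyc9a against 72.1 in wildtype lungs with its other probe set (0.32). The signs of Mfap2 and Mfap5 turned under quantile normalization and under loess, so neither gene has a settled direction. Mfap4, a fibrinogen-related protein of microfibrils that binds elastin, read 4021 in Nmyc9a and 4611 in wildtype lungs (-0.20), a ratio that became 0.06 under loess.

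Both lysyl oxidase genes among the members lay below 0, and Lox was the lowest of the 9. Lox, the main enzyme that oxidises lysines of tropoelastin and collagen so that they cross-link, read 1433 on the array labelled Nmyc9a and 2122 on the wildtype array (log2 ratio -0.57, 1.48-fold lower), just short of the 1.5-fold rule. A second bright Lox probe set read 1368 in Nmyc9a and 1927 in wildtype lungs (-0.49, 1.41-fold lower). The third Lox probe set, at 47.9 in Nmyc9a and 47.8 in wildtype lungs, lay just below the floor and carries no information on the ratio. The ratios of the bright Lox probe sets were 0.07 apart and larger than the SD of 0.40 between probe sets. Of all measured genes, 10.6% had a ratio below that of Lox, and of the brightest 25% 12.7% did. Its ratio was negative in all 10 alternative settings, from -0.57 to -0.32, the value nearest 0 under quantile normalization. Some of these settings could not change it. Moving or removing the floor left it at -0.57, since both signals lie far above any floor used. So did leaving out probe sets with x, s or a in their names, since its brightest probe set is not of that kind. Loxl1, the family member tied to elastic fibre renewal, read 577 in Nmyc9a and 702 in wildtype lungs (-0.28). Its other probe set gave 4.89 in Nmyc9a and 5.10 in wildtype lungs, far below the floor.

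Ltbp4, the gene of a latent TGF-beta binding protein that works with fibulin-5 to place elastin on microfibrils, was the highest member. Its single probe set read 845 on the array labelled Nmyc9a and 687 on the wildtype array (log2 ratio 0.30, 1.23-fold higher). The difference was smaller than the SD between probe sets, and 17.3% of all measured genes had a higher ratio. Among the brightest 25% 7.68% did. Over 9 alternatives its ratio stayed between 0.29 and 0.50, though moving or removing the floor could not change it at these signals.

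**Figure D2:**
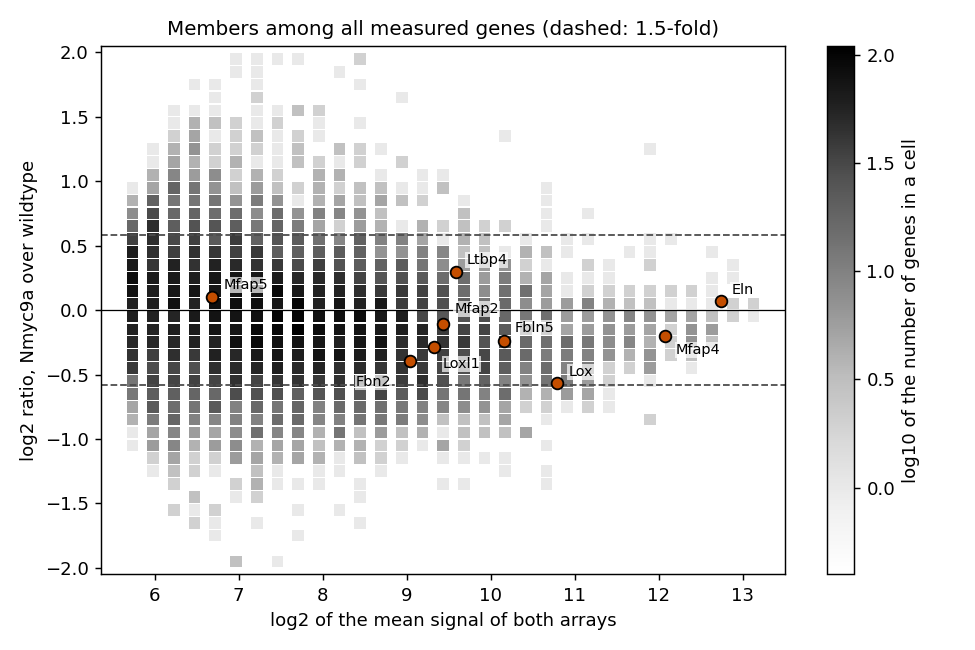
Log2 ratio (Nmyc9a over wildtype) against log2 mean signal for the 12600 measured genes, shaded by the number of genes in each cell, with the 9 members as coloured points and ratios beyond 2 drawn at the edge. All members lie between the 1.5-fold lines, with Lox at -0.57 nearest to the lower line.

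Probe sets of the same member agreed closely. In all 5 members with exactly 2 measured probe sets (Eln, Fbn2, Lox, Mfap2 and Mfap5), both ratios had the same sign. Of 3207 genes on the arrays with exactly 2 measured probe sets, 1930 (60.2%) did. The gap between the probe sets had a median of 0.10 in these 5 members, from 0.07 to 0.21, against 0.31 over the 3207 genes. All of these 5 members except Mfap5 are among the brightest genes. The 3207 genes were not chosen by signal beyond being measured, so neither comparison is matched for signal. Probe sets of a gene share the same RNA, so their agreement says nothing about the spread between pools of lungs.

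**Figure D3:**
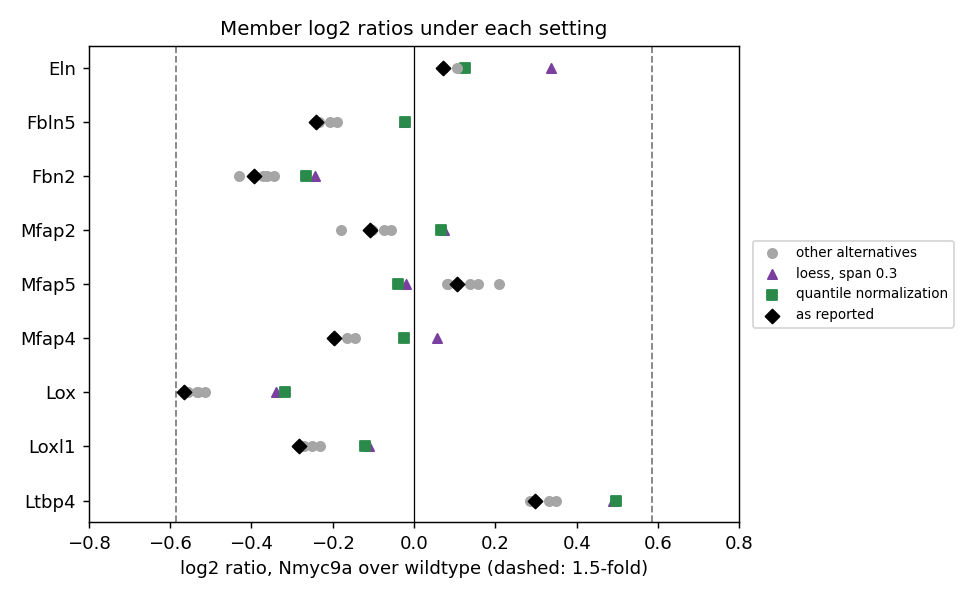
Log2 ratio (Nmyc9a over wildtype) of each member as reported (diamonds) and under each alternative setting, with dashed lines at 1.5-fold. Scaling moved the points most: quantile normalization brought Lox to -0.32 and loess brought Eln to 0.34, and no member crossed a dashed line.

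N-Myc with its partner Max binds the E-box CACGTG and, less strongly, variants such as CACGCG. RefSeq promoter windows (GRCm38.p6), reaching 250 bases before to 50 after a start, were analysed for 4 member genes. These were Fbn1, Fbln5, Mfap2 and Ltbp4, with 8 windows in all. Windows of the other members are not analysed here. A filter by chromosome was applied to the member windows but not to the windows of all genes. None of the 8 windows held CACGTG, which is its own reverse complement; 7.15% of all 32851 windows did. CACGCG, on either strand, was in 3 of the 8 windows and in 9.27% of all windows. The 3 were 1 of Fbln5 and 2 overlapping windows of Ltbp4 that share the same match. The 250 bases before these starts are shown, since they are the analysed member promoters with a match. The ratios of these genes lay on either side of 0 (-0.24 for Fbln5 and 0.30 for Ltbp4). Capitals mark CACGCG; both stretches are on the minus strand, at chr12:101819120-101819369 for Fbln5 and chr7:27333664-27333913 for Ltbp4. These matches describe letters only, and no binding was measured.
Fbln5: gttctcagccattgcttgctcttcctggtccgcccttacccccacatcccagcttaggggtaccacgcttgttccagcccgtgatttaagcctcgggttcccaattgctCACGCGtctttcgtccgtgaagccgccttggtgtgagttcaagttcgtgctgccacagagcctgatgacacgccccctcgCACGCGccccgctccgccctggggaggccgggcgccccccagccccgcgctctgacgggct
Ltbp4: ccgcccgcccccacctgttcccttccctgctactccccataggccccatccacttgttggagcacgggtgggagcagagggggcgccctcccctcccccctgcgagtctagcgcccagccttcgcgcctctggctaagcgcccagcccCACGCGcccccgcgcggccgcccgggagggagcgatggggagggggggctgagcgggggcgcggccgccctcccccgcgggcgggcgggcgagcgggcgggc

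Other genes of fibre assembly were read from 8 further lists, against the same 1.5-fold backgrounds. Among 5 measured fibulins and emilins, Efemp1, the gene of fibulin-3, was 2.42-fold lower, at 83.4 in Nmyc9a and 201 in wildtype lungs with 1 measured probe set. No gene of that list was 1.5-fold higher. Emilin1, an elastin-associated glycoprotein, was its highest gene at 0.18, although its other measured probe set gave -0.46. Fbln7 and Emilin3 lay below the floor, and the list's median was -0.11. The other measured lysyl oxidases were Loxl3 at 0.16 and Loxl4 at -0.17.

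None of 6 latent TGF-beta binding protein and TGF-beta genes passed 1.5-fold by its brightest probe set, with a median of -0.08. Tgfb1 stood at 0.26 by that probe set, while its other measured probe set gave 0.90, past 1.5-fold. Ltbp2, which binds fibulin-5, stood at 0.31, and Tgfb2, a ligand gene, at -0.54 (538 in Nmyc9a and 783 in wildtype lungs). The 4 measured Tgfb2 probe sets were all below 0, from -0.54 to -0.14. Among the Adamts and Adamts-like genes, several of whose proteins bind fibrillin, 5 of 7 measured stood above 0 and the median was 0.44. Under quantile normalization and loess 4 of the 7 did, with medians of 0.27 and 0.29. Adamtsl4, linked to microfibrils of the eye, was 1.60-fold higher, at 290 in Nmyc9a and 180.5 in wildtype lungs. Adamtsl1 was 1.73-fold lower by its brightest probe set (55.2 in Nmyc9a and 95.5 in wildtype lungs, near the floor), while its other probe set stood at -0.01. Adamtsl2, a binding partner of Ltbp1 and fibrillin-1, read 592 in Nmyc9a and 395.5 in wildtype lungs, at 0.58 just under the rule, and all 4 alternative scalings counted 2 genes of the list as higher instead of 1.

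Escort and copper supply genes held 1 of 6 lower and none higher (median -0.08). Glb1, whose locus also gives the elastin-binding escort protein, was 1.65-fold lower, at 104 in Nmyc9a and 172 in wildtype lungs. Neu1, the sialidase that acts with it, stood at 0.30, and Atp7a, the copper pump that loads lysyl oxidases, at -0.05, with the sign turned under quantile normalization and loess. Of 5 measured elastin-degrading proteases, Ctsk, cathepsin K, was 1.51-fold lower (60.2 in Nmyc9a and 91.2 in wildtype lungs), a call lost with the values as deposited and with centring on named genes. Mmp9 was highest at 0.06 and turned sign under quantile normalization and loess. Mmp12, the macrophage elastase, and the neutrophil enzymes Elane and Prtn3 lay below the floor on both arrays. The protease list had a median of -0.19 and no gene 1.5-fold higher.

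Of 6 proteoglycan genes, 2 were lower and none higher (median -0.33). Vcan, the gene of versican, whose chondroitin sulphate chains hinder elastic fibre assembly, read 96.0 in Nmyc9a and 238 in wildtype lungs (2.47-fold lower), and its 3 measured probe sets ran from -1.31 to -0.58. Dcn, decorin, was 1.53-fold lower (386 in Nmyc9a and 592 in wildtype lungs), a call lost in all 4 alternative scalings, where its log2 ratio ran from -0.58 to -0.48. Fmod was highest at 0.22, with 5 probe sets from -0.40 to 0.22. Among 12 mesenchymal regulators of elastogenesis, Igf1, a growth factor that stimulates elastin synthesis, was 2.002-fold lower, at 436 in Nmyc9a and 874 in wildtype lungs. Its 4 measured probe sets disagreed, from -1.001 to 0.10. No regulator was 1.5-fold higher; Fgf18, a growth factor that stimulates elastogenesis in lung fibroblasts, was highest at 0.28. The median of -0.08 turned to 0.13 under quantile normalization and 0.16 under loess.

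**Figure D4:**
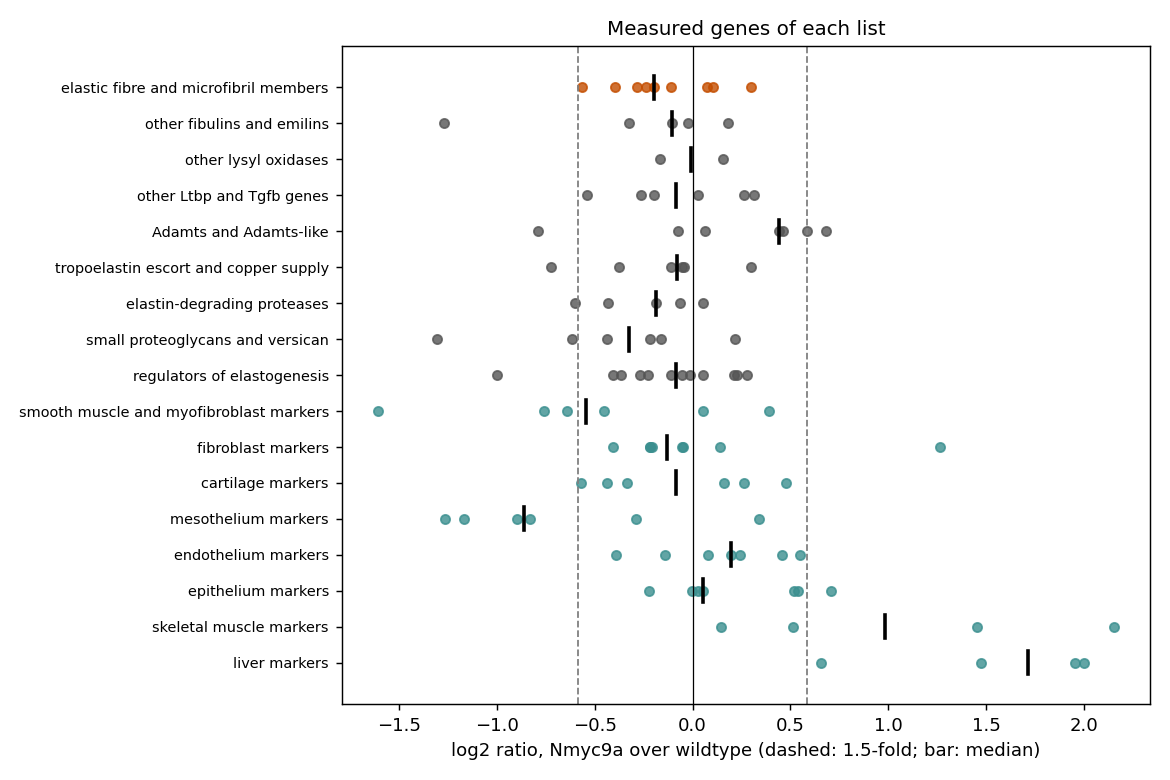
Log2 ratios (Nmyc9a over wildtype) of the measured genes of each list, with black bars at the medians and dashed lines at 1.5-fold; ratios with 1 signal below the floor are bounds. The 9 members lie inside the 1.5-fold lines, whereas mesothelium markers have a median of -0.86 and liver markers one of 1.72.

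The smooth muscle and myofibroblast markers and the mesothelium markers had medians further below 0 than the members. Of 6 measured smooth muscle and myofibroblast markers, 3 were 1.5-fold lower, namely Acta2, Tagln and Myh11, and none was 1.5-fold higher. Above 0 stood 2 of the 6, Des at 0.39 and Smtn at 0.05, although the other measured Des probe set gave -0.004. Signals of the 6 markers summed to 2874 on the array labelled Nmyc9a and 4502 on the wildtype array. The median of -0.55 for these 6 was -0.46 under quantile normalization and -0.43 under loess. Both of those settings counted 1 of the 6 as lower. Cnn1 and Lmod1 lay below the floor on both arrays. Of 6 measured mesothelium markers, 4 were 1.5-fold lower (Msln, Krt19, Aldh1a2 and Lrrn4) and none was 1.5-fold higher. Upk3b stood at -0.29, and Muc16 went the other way at 0.34, a bound, since its wildtype signal of 42.7 lay below the floor. The mesothelium signals summed to 2063 in Nmyc9a and 3909 in wildtype lungs. For both lists the background was 9.7% lower among all measured genes and 11.5% among the brightest 25%. Wt1 was near the floor on both arrays. In RNA of whole lungs, fewer cells of a type and less RNA per cell cannot be told apart.

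Fibroblast markers had 1 of 8 higher by 1.5-fold, Meg3, a non-coding RNA that other cells also express, and none lower. The fibroblast signals summed to 25127 in Nmyc9a and 23438.5 in wildtype lungs. Of these sums Meg3 alone gave 5345 in Nmyc9a and 2222 in wildtype lungs. The 11 measured Meg3 probe sets ran from -0.11 to 1.69. Of the 8 fibroblast markers 6 stood below 0. Their median of -0.13 became 0.08 under quantile normalization and 0.12 under loess. The collagen gene Col1a1 stood at 0.14 and Col3a1 at -0.22, which became 0.04 under loess. None of 7 endothelium markers passed 1.5-fold by its brightest probe set (sums of 5498 in Nmyc9a and 5381 in wildtype lungs). With centring on named genes 1 was higher, Flt1 at 0.60. The other measured Cdh5 probe set gave 0.67, past 1.5-fold, and the 4 measured Flt1 probe sets ran from -0.07 to 0.64. None of 6 cartilage markers passed 1.5-fold by its brightest probe set (sums of 571 in Nmyc9a and 573 in wildtype lungs). Of 7 epithelium markers Foxj1 was 1.63-fold higher and none was lower (sums of 21766 in Nmyc9a and 19751 in wildtype lungs). On the skeletal muscle list, 2 of 4 measured markers were higher (sums of 666 in Nmyc9a and 316 in wildtype lungs). On the liver list 4 of 4 were (1021 in Nmyc9a and 271 in wildtype lungs). For all lists of this paragraph, the background among all measured genes was 6.33% higher by 1.5-fold and 9.7% lower. Among the brightest genes, as defined above, it was 1.94% higher and 11.5% lower. The ratios of Acta1, a muscle marker, and of the liver markers Ttr and Apoa1 are bounds. Their wildtype signals of 41.1, 35.1 and 32.7 lay below the floor. The source of this muscle and liver RNA was not tested. No marker on these 8 lists had a signal of 0 on either array. The part of these shifts in the members' ratios was not tested.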

How the data were processed

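Total RNA of pooled lungs was extracted with Trizol and an RNeasy kit and labelled with biotin for Affymetrix arrays, per the labels' protocols. The deposited values are a linear intensity per probe set; the summary method and any scaling are not stated in the sources used here, though the mean trimmed by 2% at each end was 150 on both arrays. Of 45101 probe sets, 64 controls were left out. A factor of 0.977 for the array labelled Nmyc9a set the median log2 ratio of probe sets at or above the floor, the 40th percentile of scaled signals, to 0. The platform annotation gave 1 symbol for 34945 probe sets, several for 932 and none for 9160; RefSeq (GRCm38.p6) updated 34741 through Entrez identifiers. Of 18193 genes 12600 were measured.

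No test was run, there being 1 array per group. Every member is named, with the genes past 1.5-fold and the highest and lowest of each of the 8 other lists. Tgfb1, Atp7a, Adamtsl2, genes below the floor and single markers were named after their values were seen. Members and lists were chosen with earlier results of these data known, and the brightest 25% of genes were chosen as a background after the data were seen. Efemp2, Loxl2, Adamts17, Fkbp10 and Serpina1a are not analysed here. Alternatives were 4 scalings, 4 treatments of low signals, 2 choices of probe set and a 2-fold rule. Counting was tested on simulated data. Python with statsmodels was used.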

Additional observations from a re-analysis of the deposited data

How the results depend on the processing

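No member was 1.5-fold higher or lower under any of the 10 alternative settings of scaling, floor or probe set, and none passed 2-fold. The median log2 ratio of the members ran from -0.22 without x, s and a probe sets to -0.02 under loess. Of 89 recomputed member ratios, 89 stayed within the probe set SD of 0.40 of the reported value. Many of the 89 could not move. With the floor moved or removed, every member kept its reported ratio, except Mfap5 at the 60th percentile (0.08). Leaving out x, s and a probe sets likewise changed no member ratio. The count of 89 therefore says little about stability beyond the scaling, pseudocount and probe set median settings. The sign turned in 5: Mfap2 (up to 0.07) and Mfap5 (down to -0.04) under quantile normalization and loess, and Mfap4 (0.06) under loess. Ltbp4 has no value without x, s and a probe sets, since its single probe set is of that kind. Scaling moved the share of higher genes among all those past 1.5-fold, from 39.5% as reported to 31.8% under quantile normalization and 49.7% with centring on named genes. The floor moved it to 28.8% at the 60th percentile and 47.5% at the 20th. The count of all genes past 1.5-fold upward was 797 as reported, 1659 with the floor at the 20th percentile, 356 at the 60th and 503 with a pseudocount of 32; downward it was 1222, 1830, 880 and 834. The cause was not tested. Among the marker lists, quantile normalization and loess counted 3 epithelium markers as higher in place of 1, 3 liver markers in place of 4, and 2 (quantile) or 1 (loess) cartilage markers as lower in place of 0. The 3 epithelium markers include Epcam, at 0.52 as reported by its brightest probe set and -0.56 by its other measured probe set. Centring on named genes counted 2 epithelium markers and 1 endothelium marker as higher, in place of 1 and 0. With 1 array per group no replicate could be left out. The floor of 49.3 caps the decrease that can show for dim genes.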
